A study of Mus musculus with 6 samples.

Results

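The genes described here are 10 genes of reactive astrocytes, namely Gfap, Vim, Nes, Lcn2, Serpina3n, Steap4, Cd44, S1pr3, Emp1 and Ptx3, out of 15441 mouse genes with a value in at least 1 library. They were chosen by name, as a set known from work on astrocyte reactivity, and each symbol was matched to its Ensembl identifier. All 10 had a value in at least 1 library, 7 were listed in the control and 6 were listed in all 6 libraries. The tissue was the whole ipsilateral cerebral cortex of male C57/BL6J mice aged 6 to 8 weeks. Stroke was made by photothrombosis, in which light shone through the intact skull activates the injected dye Rose Bengal and clots the vessels under it. The post-stroke groups were taken 1, 3, 7, 14 or 28 days later (d1, d3, d7, d14 and d28), and the control was sham-operated cortex, without illumination, taken on the 7th day after the operation. RNA of 3 mice was pooled for each group and sequenced as 1 library. The spread between animals was therefore not measured, no test was possible, and no difference could be checked against a second library of its group. The control differs in age after surgery from 4 of the 5 post-stroke groups, and all 5 comparisons share that control library.

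Astrocytes are the star-shaped glia that clear glutamate, buffer potassium and line the vessels of the brain. After injury they become reactive: they enlarge, build more intermediate filaments, secrete acute-phase and matrix proteins, and close around the lesion as a glial scar. Signaling by cytokines of the interleukin 6 family through the transcription factor STAT3 is a known driver of this state, and reactive astrocytes have been sorted by their genes into a pan-reactive set, a set induced by neuroinflammation (A1) and a set induced by ischemia (A2).

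The deposited values were FPKM (sequenced fragments scaled to transcript length and to the size of the library) of transcript events, such as transcript starts, transcript ends and skipped exons. The value of a gene in a library was the largest of its summed starts, its summed ends and any single event. A gene without an event in a library is called not listed there, which does not show that its RNA was absent. Gapdh and Tubb3, which are abundant in brain, were not listed in any of the 6 libraries. Ratios are log2((FPKM + 0.1)/(control FPKM + 0.1)), which understates the change of low genes, and a gene is called higher or lower at a log2 ratio of at least 1 in size. Calls were made among genes with at least 1 FPKM in the control or in the day compared. A gene not listed entered the calls as 0, so that any value of at least 1 FPKM in the other library made it called, and no ratio is given for it. The number of reads behind each value is unknown, since the files hold FPKM alone, and the labels state an average of 33.6 M reads per sample.

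The day 14 library stood apart from the rest. It held 83501 events, against 92295 (the control) to 99187 (d7) in the other libraries. In it, 38 genes with a median of at least 5 FPKM over the other libraries were not listed, against 2 to 7 such genes in each other library. Across genes, its log2 ratio to the control declined with transcript length (Spearman's rho = -0.41 over 12025 genes, which are not independent). The same value was -0.25 at d1 and between -0.09 and 0.00 at days 3, 7 and 28. The days of the peaks of the 10 genes and of the A1 and A2 lists are therefore given with and without it. Even widely expressed genes moved between these libraries: Ppia had 498 FPKM in the control, 601 at d1, 62.2 at d3, 121 at d7, 713 at d14 and 131 at d28. Of 8 widely expressed genes, 7 had a value, and 1 of 7 was called higher at each of the 5 days, while Ppia was called lower at d3, d7 and d28.

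At day 1 post-stroke, 10 of the 10 genes were already called higher than in the control. Of all 11790 genes compared at that day, 5.11% were called higher and 4.48% lower. At day 3, 10 of the 10 genes were again called higher, against 8.54% of all 12052 genes, with 2.53% of all genes lower. At day 7, 8 genes reached the minimum level and 7 of them were called higher, against 8.53% of all 12069 genes, with 2.12% lower. The exception was Nes, at a log2 ratio of 0.88, and the genes under the minimum were Steap4 and Ptx3. At day 14, 9 genes were called higher, against 8.97% of all 12045 genes. Nes was not listed there and so counted as lower, against 6.92% of all genes. At day 28, 7 genes reached the minimum level, and only Lcn2 and Serpina3n were called higher, against 3.68% of all 11751 genes. Nes was again not listed and counted as lower, against 2.79%, and Steap4, Cd44 and Ptx3 were under the minimum in both libraries. Lcn2, Steap4 and Ptx3 were not listed in the control, so each was called higher wherever it reached 1 FPKM, whatever its true change. The shares of all genes hold such calls too. Among genes listed in both libraries, 7 of the 10 were called higher at d1, 7 at d3, 6 at d7, 6 at d14 and 1 at d28. The genes were picked as markers of reactivity with earlier results of these data known, so these counts describe the genes and support no claim about them.

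The onset of all 10 genes, as the earliest day called higher, was day 1, which was also the earliest day sampled. The day of the highest value differed: Ptx3 peaked at d1, 6 genes (Gfap, Vim, Nes, Serpina3n, Cd44 and Emp1) at d3, and Lcn2, Steap4 and S1pr3 at d14. No gene peaked at d7 or day 28. Without the day 14 library, which was left out as a choice made after seeing the data, 2 genes peaked at d1 (Ptx3 and Steap4) and 8 at d3. The median log2 ratio over the 10 genes, with those not listed taken as 0, was 2.41 at d1, 3.22 at d3, 2.34 at d7, 2.34 at d14 and 0.31 at d28. Over all genes compared, the median was 0.01, 0.03, 0.03, 0.10 and 0.03 at the same days. Among the genes listed in both libraries, the median was 2.04 at d1 (7 genes), 2.99 at d3 (7 genes), 2.30 at d7 (7 genes), 2.13 at d14 (6 genes) and 0.31 at d28 (6 genes).

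**Figure D1:**
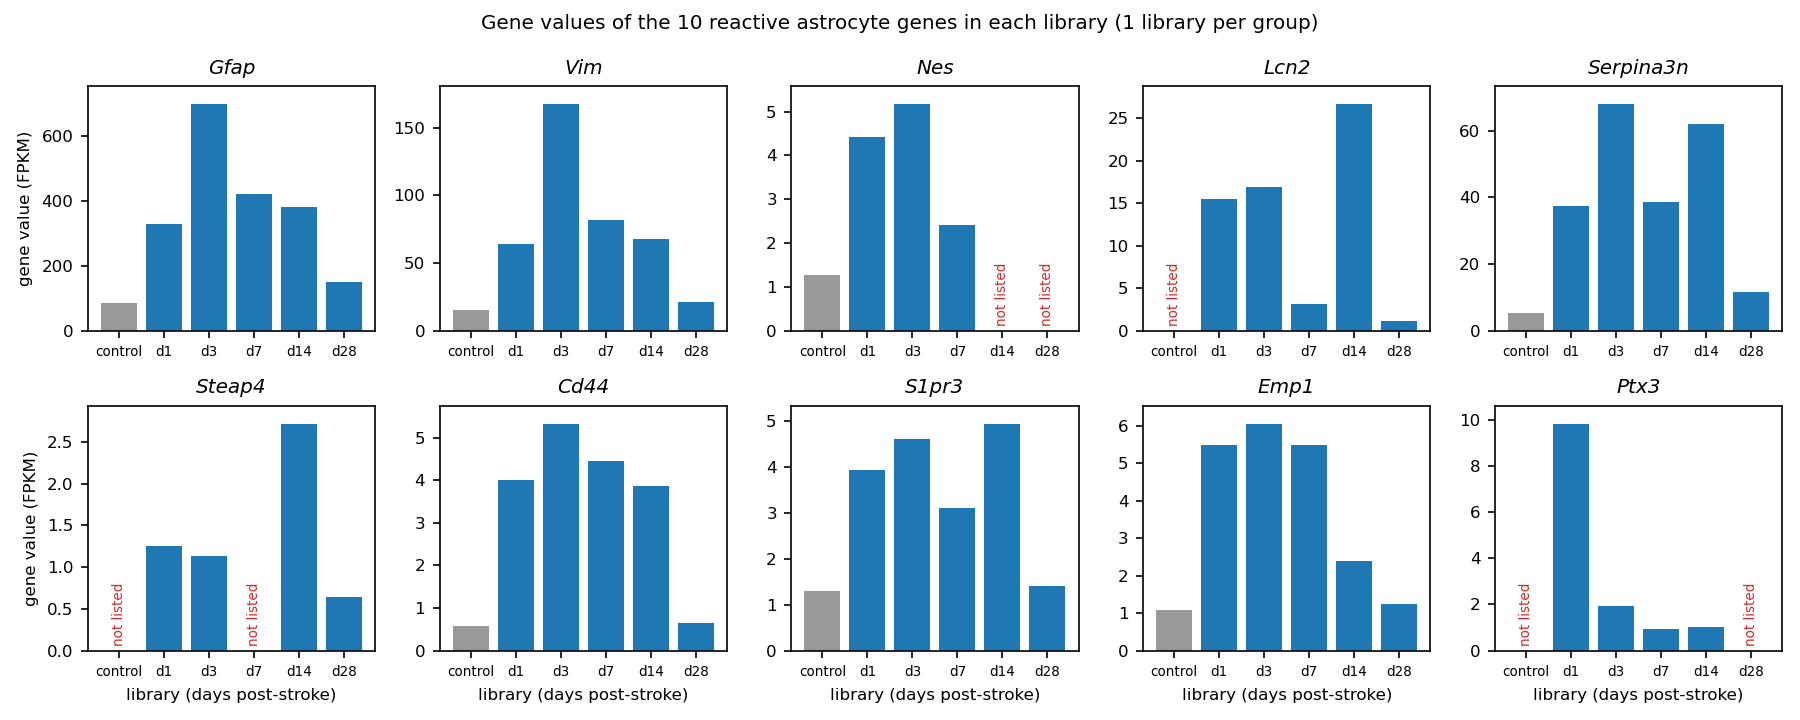
Gene value in FPKM (y axis, linear, its own scale for each gene) of the 10 genes in the control library (grey) and in the 5 post-stroke libraries (blue), with 1 library per group and no error bars. Every gene has higher bars at days 1 and 3 than its grey bar where it was listed in the control, and Gfap goes from 85.8 FPKM in the control to 698 FPKM at d3 and 150 FPKM at d28.

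Gfap encodes glial fibrillary acidic protein, the intermediate filament of astrocytes and the usual marker of their reactivity. It lies on chromosome 11 from 102887336 to 102900912 on the minus strand (GENCODE M21, build GRCm38, which is mm10). Its gene value was 85.8 FPKM in the control, 330 at d1, 698 at d3, 422 at d7, 380 at d14 and 150 at d28. It was the most abundant of the 10 genes in every library. The level peaked at d3, at 8.13 times the control, and at days 7 and 14 it was still 60.5% and 54.5% of that peak. The log2 ratio was 1.94 at d1, 3.02 at d3, 2.30 at d7, 2.15 at d14 and 0.80 at d28. At day 28 the level was 1.74 times the control, under the call, and 10.4% of the rise from the control to the peak was left.

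Vim encodes vimentin, an intermediate filament that copolymerizes with GFAP in reactive astrocytes and is also made by endothelial cells, fibroblasts and microglia. The gene is on chromosome 2 from 13573927 to 13582826 on the plus strand. Its value was 15.5 FPKM in the control, 64.2 at d1, 167 at d3, 81.5 at d7, 67.6 at d14 and 21.0 at d28. It followed the order of days of Gfap at a lower level, with a higher ratio at d3 (log2 ratio 3.42) and a lower one at d28 (0.44). At day 28, 3.65% of its peak rise was left.

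Nes encodes nestin, the intermediate filament of neural progenitors that reactive astrocytes make again. Its span is on chromosome 3 from 87971078 to 87980451 on the plus strand. Its value was 1.27 FPKM in the control, 4.42 at d1, 5.17 at d3 and 2.42 at d7, and it was not listed at days 14 and 28. Among the listed days it was highest at d3, at 4.08 times the control, and by day 7 its log2 ratio of 0.88 was under the call. All of its values came from 1 start event, so its course after day 7 cannot be given.

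The relatives of these filaments differed. Des, which encodes desmin, rose at a level under the minimum of 1 FPKM, from 0.114 FPKM in the control to 0.877 at d7 (log2 ratio 2.19). Of the neurofilament genes, Nefl had 133 FPKM in the control and 99.7 at d3, and the log2 ratios of Nefl, Nefm, Nefh and Ina lay between -0.42 and 0.29 at all 5 days. Synm, which encodes synemin, a partner of these filaments, had 4.56 FPKM in the control and 4.90 at d3, and was not listed at d14.

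Serpina3n encodes a secreted serine protease inhibitor and acute-phase protein. The gene spans chromosome 12 from 104406729 to 104414329 on the plus strand. Its value was 5.30 FPKM in the control, 37.5 at d1, 68.0 at d3, 38.8 at d7, 62.0 at d14 and 11.8 at d28. The course had 2 high points, at days 3 and 14, with a lower value at d7 between them. The log2 ratio was 2.80 at d1, 3.66 at d3, 2.85 at d7, 3.52 at d14 and 1.14 at d28. It was the only gene listed in both libraries that was still called higher at d28, at 2.22 times the control, with 10.3% of its peak rise left. Serpina3n has close paralogs beside it that can share reads with it. Of the paralogs examined, Serpina3f, Serpina3g, Serpina3h and Serpina3i were not listed in any library, and Serpina3m had 0.60 FPKM at d7 and 0.58 at d14 and was not listed elsewhere.

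Lcn2 encodes lipocalin 2, a secreted protein that binds bacterial siderophores and is made by reactive astrocytes and by neutrophils. It lies on chromosome 2 from 32384633 to 32388252 on the minus strand. It was not listed in the control and had 15.5 FPKM at d1, 16.9 at d3, 3.09 at d7, 26.6 at d14 and 1.10 at d28. The values were high at days 1, 3 and 14 and low at days 7 and 28, so that the day 7 value was 11.6% and the day 28 value 4.11% of the day 14 value. Without the day 14 library its highest value was at d3. Its values came from end events alone, and no start of it was listed. Of its partners, Slc22a17, a receptor for it, had 184 FPKM in the control and log2 ratios between -0.28 and 0.41, and Lrp2, another receptor, was not listed in any library.

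Ptx3 encodes pentraxin 3, a secreted pattern-recognition protein of innate immunity and one of the A2 genes. The gene occupies chromosome 3 from 66219910 to 66225805 on the plus strand. It was not listed in the control, had 9.83 FPKM at d1, 1.92 at d3, 0.942 at d7 and 1.01 at d14, and was not listed at d28. Over all libraries it was the only one of the 10 genes with its peak at d1: by day 3 it was at 19.5% of its day 1 value, and by day 7 at 9.59%. Since it was not listed in the control, the size of its rise at day 1 cannot be given. The neuronal pentraxin Nptx2 was also highest at d1, with 16.0 FPKM in the control, 81.2 at d1 and 15.9 at d3, while Nptx1 stayed between 41.9 and 51.8 FPKM.

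Cd44 encodes the cell surface receptor for hyaluronan and osteopontin, which is carried by reactive astrocytes and by most leukocytes. The gene extends over chromosome 2 from 102811141 to 102901665 on the minus strand. Its value was 0.582 FPKM in the control, 4.01 at d1, 5.33 at d3, 4.46 at d7, 3.86 at d14 and 0.649 at d28. The course was a plateau from day 1 to day 14, with log2 ratios of 2.59, 2.99, 2.74 and 2.54, and at d28 the level was 1.11 times the control with 1.40% of the peak rise left. The day 14 and day 28 values rest on how the gene value was built: the summed starts gave a log2 ratio of -1.003 at d14, and the summed ends gave -2.24 at d28. Its ligand osteopontin, encoded by Spp1, had 7.42 FPKM in the control, 24.3 at d1, 323 at d3, 783 at d7, 151 at d14 and 18.5 at d28. Spp1 was thus highest at d7, after Cd44. The hyaluronan synthases were listed in few libraries: Has2 in none, Has3 at d7 with 0.18 FPKM, and Has1 at days 7 and 28 with 0.52 and 0.76 FPKM.

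S1pr3 encodes a G protein-coupled receptor for sphingosine-1-phosphate. Its position is chromosome 13 from 51408639 to 51422797 on the plus strand. Its value was 1.29 FPKM in the control, 3.94 at d1, 4.62 at d3, 3.12 at d7, 4.94 at d14 and 1.41 at d28. The values at days 3 and 14 were close, and with every library scaled to the same total the peak moved to day 3. The log2 ratio was between 1.21 and 1.86 from day 1 to day 14 and 0.13 at d28. With a pseudocount of 1 the day 7 ratio was 0.85, under the call. Of the other receptors of this family, S1pr5 had 7.00 FPKM in the control and log2 ratios between -0.38 and -0.15, and S1pr1, S1pr2 and S1pr4 were not listed in any library. Of the enzymes of sphingosine-1-phosphate, the lyase gene Sgpl1 was called higher at d1 (4.90 FPKM in the control, 10.3 at d1), and the kinase genes Sphk1 and Sphk2 were not called at any day.

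Emp1 encodes epithelial membrane protein 1, a small membrane protein with 4 membrane spans that belongs to the family of Pmp22. It lies on chromosome 6 from 135362545 to 135383173 on the plus strand. Its value was 1.10 FPKM in the control, 5.48 at d1, 6.05 at d3, 5.48 at d7, 2.40 at d14 and 1.25 at d28. It was level over days 1 to 7 and had come down to 39.6% of its peak by day 14. The log2 ratio at d14 was 1.06, and it went under the call, to 0.98, when libraries were scaled by their median ratio and to 0.91 when the trend over transcript length was removed. Its relative Emp3 was called higher at days 1 to 14, with a peak of 9.85 FPKM at d7 against 2.58 in the control. Emp2 and Pmp22 were not called at any day, with highest log2 ratios of 0.43 and 0.80.

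Steap4 encodes a membrane metalloreductase that reduces iron and copper. It lies on chromosome 5 from 7960457 to 7982213 on the plus strand. It was not listed in the control or at d7, and had 1.25 FPKM at d1, 1.14 at d3, 2.72 at d14 and 0.648 at d28. It was the lowest of the 10 genes at its peak, and its values lay near the minimum level of 1 FPKM. Of its relatives, Steap3 had 2.46 FPKM in the control, 4.69 at d3 and 0.28 at d28, and Steap2 had 2.01 FPKM in the control and was not listed at d14. Over all 33 partners and paralogs looked up for the 10 genes, 24 had a value, and 4 of 19 compared were called higher at d1, 2 of 19 at each of d3, d7 and d14, and 1 of 20 at d28, with 1, 1, 1, 3 and 2 called lower. The shares of all genes were 5.11, 8.54, 8.53, 8.97 and 3.68% higher and 4.48, 2.53, 2.12, 6.92 and 2.79% lower. Nptxr, listed in the control alone, counted as lower at every day, as did Synm and Steap2, not listed, at d14. Only Steap3 at d28 was called lower while listed in both libraries.

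**Figure D2:**
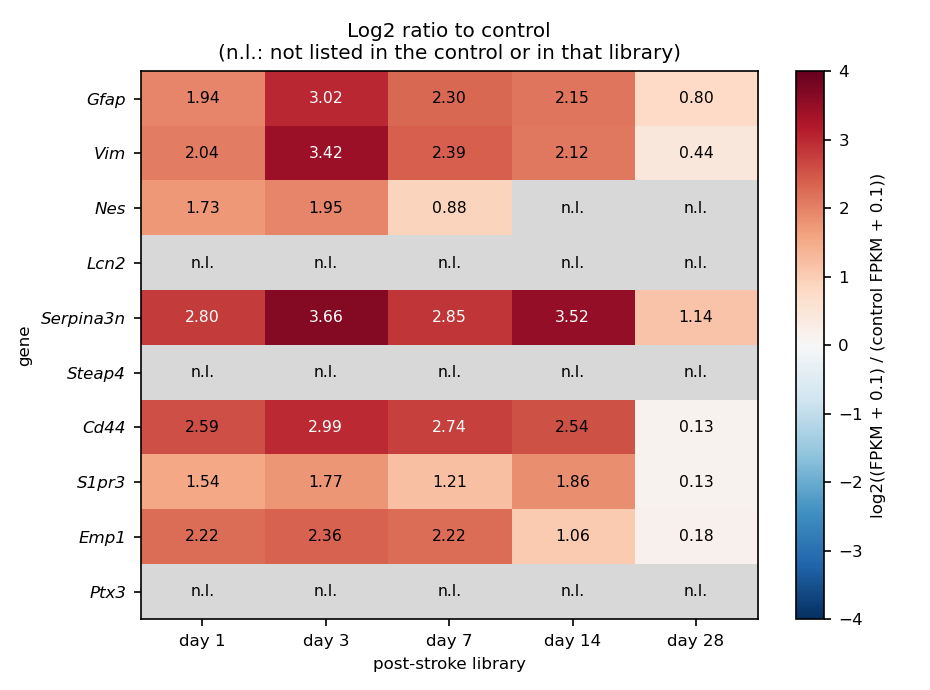
Log2 ratio to the control, log2((FPKM + 0.1)/(control FPKM + 0.1)), of the 10 genes (rows) at the 5 days post-stroke (columns), written in each cell and colored from blue (lower) to red (higher). Grey cells marked n.l. are those in which the gene was not listed in the control or at that day. The highest ratio is 3.66, for Serpina3n at d3, and at d28 only Serpina3n, at 1.14, is above 1.

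Set against their own peaks, the genes differed at d1: Vim was at 38.4% of its peak, Gfap at 47.3%, Cd44 at 75.3%, S1pr3 at 79.9%, Nes at 85.5% and Emp1 at 90.7%. Lcn2, Serpina3n, S1pr3 and, by a small margin, Ptx3 (0.942 FPKM at d7 against 1.01 at d14) had a lower value at d7 than at both day 3 and day 14, and Steap4, not listed at d7, had values at both of those days. The later high point of these genes is the day 14 value itself, so it rests on that library alone. With the length trend removed, Lcn2, Steap4 and S1pr3 still peaked at d14. With every library scaled to the same total, S1pr3 peaked at d3. From day 14 to day 28 the gene values of all 8 genes listed at d28 came down (the summed starts of Cd44 went up, from 0.240 to 0.649 FPKM), from Emp1, whose day 28 value was 0.52 times its day 14 value, to Lcn2, whose value was 0.04 times.

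The measure of likeness used next was the root mean square difference of log2 ratios over the 5 days, day 14 included, over 11564 other genes listed in all 6 libraries with at least 1 FPKM in any. It was computed for the 6 genes listed in all libraries. Gfap and Vim were each the nearest gene to the other (0.25). The next genes to Gfap were Col7a1 (0.35), Tgif1 (0.35), Tgm2 (0.36) and Rab32 (0.43), of which Col7a1 and Tgif1 had only 0.075 and 0.186 FPKM in the control. After Gfap, the nearest to Vim were Cd44 (0.42), Tgif1 (0.42), Rab32 (0.49) and Hk3 (0.50), of which Hk3 had only 0.218 FPKM in the control. The nearest to Cd44 were Vim (0.42), Gfap (0.49), Tgif1 (0.52), Atp5e (0.54) and Hk3 (0.58). The distances of Cd44, also that to Vim, rest on its day 14 and day 28 ratios, which change sign with summed starts and summed ends, respectively. The nearest to Serpina3n were Ms4a6d (0.41), A2m (0.41), Cxcl5 (0.43), Sfrp4 (0.43) and S100a4 (0.44). Of these, Cxcl5 and Sfrp4 had only 0.048 and 0.202 FPKM in the control, a level at which the pseudocount understates the change. A2m encodes the protease inhibitor alpha-2-macroglobulin and had log2 ratios of 3.06 at d1, 3.87 at d3, 3.59 at d7, 3.97 at d14 and 1.15 at d28. The nearest to Emp1 were Angptl4 (0.36), Tagln2 (0.36), Thbs1 (0.38), Tubb6 (0.39) and Anxa2 (0.45). The nearest to S1pr3 were Rplp0 (0.22), Tnfrsf1a (0.24), Srgn (0.28), Bet1 (0.28) and Parp3 (0.29). Rplp0 encodes a ribosomal protein made in nearly all cells, so a course like that of S1pr3 was not limited to genes of reactive glia. Rplp0 had 54.1 FPKM in the control and 173 at d1, 179 at d3, 173 at d7, 190 at d14 and 55.4 at d28. Atp5e, among the nearest to Cd44, had 14.8 FPKM in the control, 122 at d1, 115 at d3, 125 at d7, 180 at d14 and 14.3 at d28. Both were thus high from day 1 to day 14 and back near the control at d28. The cause of such courses was not tested.

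The pan-reactive list held 13 genes, of which 7 are among the 10 genes above. Of the other 6 (Timp1, Hspb1, Cxcl10, Osmr, Cp and Aspg), 5 of 6 compared were called higher at d1, 6 of 6 at d3, 4 of 6 at d7, 5 of 6 at d14 and 1 of 3 at d28. Beside these counts, and those of the lists below, stand the shares of all genes called higher. They were 5.11% at d1, 8.54% at d3, 8.53% at d7, 8.97% at d14 and 3.68% at d28. Timp1, an inhibitor of matrix metalloproteinases, had 0.28 FPKM in the control, 16.2 at d1, 16.5 at d3, 5.33 at d7 and 6.86 at d14, and was not listed at d28. Hspb1, a small heat shock protein gene, was highest at d1 (3.99 FPKM in the control, 23.9 at d1, 9.43 at d3). Osmr, the oncostatin M receptor gene, was the only one of these 6 called higher at d28: it had 0.03 FPKM in the control, 1.85 at d1, 2.55 at d3, 1.47 at d7, 2.59 at d14 and 1.21 at d28, a log2 ratio of 3.32. Cxcl10, a chemokine gene not listed in the control, was highest at d14 with 8.33 FPKM and, without that library, at d7 with 3.42 FPKM.

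The list of 12 A1 genes shares no gene with the 10. Over all genes compared, 5.11, 8.54, 8.53, 8.97 and 3.68% were called higher at the 5 days in order. Of 11 A1 genes with a value, 3 of 9 compared were called higher at d1, 8 of 11 at d3, 7 of 11 at d7, 7 of 9 at d14 and 2 of 9 at d28. None was called lower. The median log2 ratio of those listed in both libraries was 0.62 at d1, 1.62 at d3, 1.97 at d7, 1.52 at d14 and 0.50 at d28. H2-D1, a class I histocompatibility gene, had 11.1 FPKM in the control, 17.2 at d1, 28.2 at d3, 45.5 at d7, 58.2 at d14 and 15.7 at d28. Gbp2, an interferon-induced GTPase gene, had 0.66 FPKM in the control, 1.81 at d1, 2.57 at d3, 4.03 at d7, 5.63 at d14 and 1.64 at d28. Both were highest at d14, and 5 of the 11 genes peaked there, against 3 at d7, 2 at d3 and 1 at d1. One of the 3, Fbln5, was not called at any day. Without the day 14 library, 7 of the 11 peaked at d7, 3 at d3 and 1 at d1. Amigo2 was not listed in any library, and Ggta1 and Iigp1 were not listed at d14.

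The list of 12 A2 genes, which holds Emp1 and Ptx3, had earlier peaks, by count, than the A1 list. Of 10 genes with a value, 5 were highest among the post-stroke days at d1 and 5 at d3, with or without the day 14 library. Of these 10, Sphk1 and S100a10 were compared and not called at any day. Sphk1 did not rise: it had 2.19 FPKM in the control and 2.15 at d1. Clcf1 and B3gnt5 stayed under the minimum of 1 FPKM and so were not compared at any day. B3gnt5 had log2 ratios of 1.86 at d1, 2.01 at d3, 1.57 at d7 and 0.45 at d14. Clcf1, not listed in the control, was highest at d3 with 0.887 FPKM. At day 1, 6 of 8 compared were called higher, then 4 of 7 at d3, 3 of 6 at d7, 4 of 7 at d14 and 1 of 5 at d28. Without Emp1 and Ptx3 these were 4 of 6, 2 of 5, 2 of 5, 2 of 5 and 1 of 4. The shares of all genes called higher were 5.11, 8.54, 8.53, 8.97 and 3.68% at the same days. Without the filter on low values, 8, 7, 7, 5 and 2 A2 genes were called higher, and under both scalings and with the length trend removed 2 were at d14. Tgm1, a transglutaminase gene not listed in the control, had 6.13 FPKM at d1, 9.38 at d3, 1.62 at d7 and 1.88 at d14. Ptgs2, which encodes cyclooxygenase 2, had 1.89 FPKM in the control, 7.26 at d1 and 3.23 at d3. Tm4sf1, a membrane protein gene, was called higher at all 5 days, with a log2 ratio of 2.38 at d3 and 1.63 at d28. Cd14 and Slc10a6 were not listed in any library. That A1 genes peaked later than A2 genes is a count within these libraries and was not tested. The RNA came from whole cortex, so the cells that made the A1 and A2 genes were not identified. Markers of infiltrating myeloid cells, summed, had 11.1 FPKM in the control, 33.7 at d1, 158 at d3, 389 at d7 and 228 at d14. The part of such cells in the A1 and A2 levels was not tested.

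Of the 14 regulators of reactivity, 11 had a value. Osmr was called higher at all 5 days. Stat3 was called higher at d1, with 6.95 FPKM in the control, 16.7 at d1, 13.9 at d3, 7.21 at d7, 9.39 at d14 and 5.50 at d28. Nfia, a transcription factor gene of the astrocyte lineage, was called higher at days 3 to 28, with 1.70 FPKM in the control and 5.54 at d14. Cebpd, not listed in the control or at days 1 to 7, had 3.81 FPKM at d14 and 3.89 at d28. Socs3, Cntf and Junb were not listed in any library. The numbers called higher were 2 of 8 compared at days 1, 3 and 7 and 3 of 9 at days 14 and 28, and none was called lower. Over all genes compared, 5.11, 8.54, 8.53, 8.97 and 3.68% were called higher at days 1, 3, 7, 14 and 28.

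The genes that mark astrocytes in the resting state stayed under the call. Of 12 such genes, including those of the glutamate transporters (Slc1a2, Slc1a3), the water channel Aqp4, the connexins (Gja1, Gjb6) and glutamine synthetase (Glul), 0 of 12 were called higher and 0 of 12 lower at each of the 5 days. Their median log2 ratio was -0.03 at d1, 0.29 at d3, 0.10 at d7, -0.05 at d14 and 0.00 at d28. The largest ratio was that of Aqp4 at d3, at 0.90, with 27.0 FPKM in the control and 50.6 at d3. Aldh1l1, a marker of astrocytes in general, had 24.5 FPKM in the control, 28.1 at d1, 25.2 at d3, 23.4 at d7, 22.9 at d14 and 19.2 at d28. All 12 were listed in all 6 libraries, and Aqp4, Kcnj10 and Slc1a2 varied about 2-fold between them. In bulk tissue, more astrocytes and more RNA per astrocyte cannot be told apart for any of these genes.

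**Figure D3:**
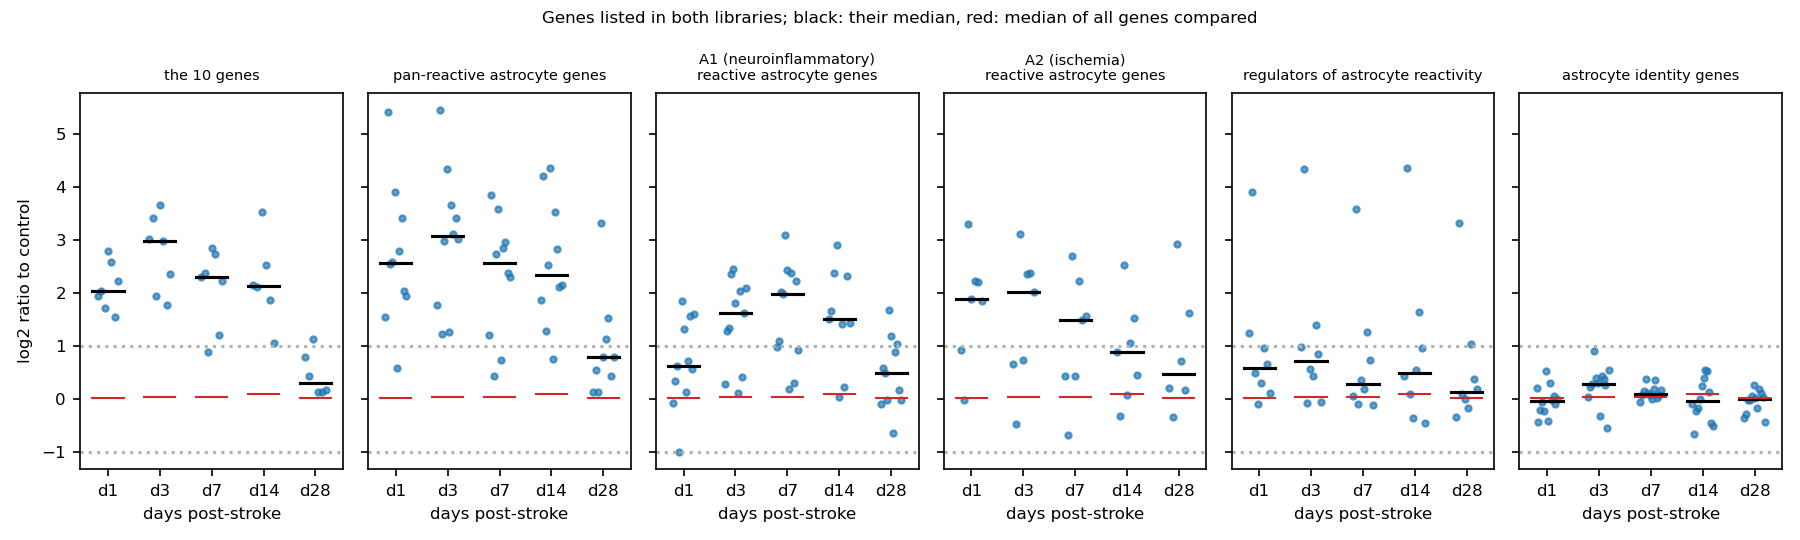
Log2 ratio to the control (y axis) at each day post-stroke (x axis) for the 10 genes and for the lists of pan-reactive, A1 and A2 genes, regulators of reactivity and astrocyte identity genes. Each blue point is a gene listed in the control and at that day, the black line is the median of those points, the red line the median of all genes compared, and the dotted lines mark 1 and -1. The points of the 10 genes lie above the red line at every day, with a median of 2.99 at d3, and the identity genes lie between -0.66 and 0.90.

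Several of the 10 genes are also made by cells other than astrocytes, and markers of such cells moved in the same libraries. Among microglia markers, P2ry12 had 18.0 FPKM in the control and was called lower at d1, with 7.01 FPKM. Csf1r had 23.9 FPKM in the control, 21.6 at d1, 50.4 at d3, 52.3 at d7, 38.9 at d14 and 23.3 at d28, and was called higher at d3 and d7. Aif1 had 4.43 FPKM in the control, 4.96 at d1, 11.6 at d3, 7.25 at d7, 15.2 at d14 and 5.63 at d28, and was called higher at d3 and d14. Of the defining markers, Tmem119 was listed only at days 7 and 28 and Cx3cr1 only at days 1 and 14. Cx3cr1 was called higher at d14, with 1.84 FPKM.

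Over all genes compared, 5.11, 8.54, 8.53, 8.97 and 3.68% were called higher at the 5 days in order. Of the 7 markers of infiltrating myeloid cells, 2 of 4 compared were called higher at d1, 4 of 4 at d3, 2 of 2 at d7, 5 of 5 at d14 and 2 of 3 at d28. Their summed level was 11.1 FPKM in the control, 33.7 at d1, 158 at d3, 389 at d7, 228 at d14 and 31.4 at d28, and Lyz2 was the most abundant in every library. At day 7 nearly all of the sum came from Lyz2 (357 FPKM) and Cd68 (29.8 FPKM), which activated microglia also make. Ccr2 had 0.199 FPKM at d1, 0.140 at d3 and 0.056 at d7 and was not listed elsewhere. Ly6c2, not listed in the control or at d1, had 1.89 FPKM at d3, 0.911 at d7, 3.56 at d14 and 1.67 at d28. Itgam was not listed in any library. The neutrophil genes S100a8 and S100a9 had their highest values at d1 (6.18 and 10.1 FPKM) and day 14 (3.84 and 5.32 FPKM). S100a9 was not listed elsewhere, and S100a8 had 0.07 FPKM in the control, 1.59 at d3 and 0.68 at d7 and was not listed at d28. Lcn2, which neutrophils also make, was high at days 1 and 14 as well, and at d3.

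The same shares of all genes called higher, 5.11, 8.54, 8.53, 8.97 and 3.68%, stand beside the next counts. Of the 6 markers of pericytes and fibroblasts, none was called at d1, 4 of 6 were called higher at d3, 3 of 6 at d7, 4 of 6 at d14 and none at d28. Their summed level was 44.0 FPKM in the control, 42.5 at d1, 98.1 at d3, 104 at d7, 99.6 at d14 and 41.8 at d28. The most abundant was Rgs5 in the control, Col1a2 at d7 and Dcn at the other 4 days. Of the 5 endothelial markers, Cldn5 was called higher at d1, where it had 1.03 FPKM and outside which it was not listed, and Pecam1 and Cdh5 were called higher at d3. Tek was called lower at d1, and Flt1, not listed at d14, counted as lower there. Their summed level was 10.2 FPKM in the control, 11.0 at d1, 19.3 at d3, 10.8 at d7, 9.18 at d14 and 8.94 at d28, with Pecam1 the most abundant in all libraries but day 7, where it was Cdh5.

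Markers of neurons and of the oligodendrocyte lineage were not called in either direction at any day. The neuron markers summed to 1462 FPKM in the control and 1359, 1041, 1076, 979 and 1258 FPKM at the 5 days in order, with Snap25 the most abundant. The oligodendrocyte lineage markers summed to 1524 FPKM in the control and 1969, 1514, 1768, 1735 and 1374 FPKM at the same days, with Mbp the most abundant and Pdgfra not listed. Of the 4 markers of choroid plexus and ependyma, 1 was called higher at each of days 1, 14 and 28. Their sum was 287 FPKM in the control and 466, 186, 349, 301 and 564 FPKM at the 5 days, nearly all of it from Ttr. The part of each of these cell types in the levels of the 10 genes, and of the other lists of reactive astrocyte genes, was not tested.

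**Figure D4:**
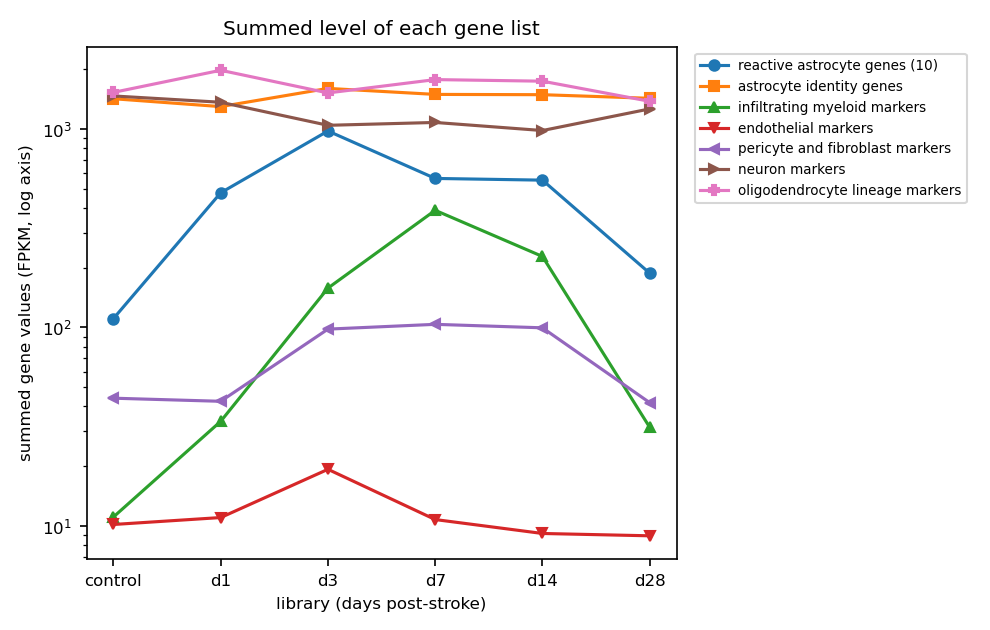
Summed gene values in FPKM (y axis, log scale) of the 10 genes and of 6 marker lists in the control and the 5 post-stroke libraries (x axis), with 1 point per library. The sum of the 10 genes is highest at d3 (974 FPKM, against 111 in the control), that of infiltrating myeloid markers at d7 (389 FPKM), and that of astrocyte identity genes stays between 1292 and 1596 FPKM.

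Transcript events were examined where a gene had several. Vim had 2 starts: one with its exon from 13573952 to 13574994, which carried all of the start level in the control and at days 1 and 7, and an upstream one with its exon from 13573927 to 13574060. The upstream start had 65.4 FPKM at d3, which was 39.1% of the gene value, 0.543 FPKM at d14 and 0.823 at d28, and it was not listed in the other libraries. At day 3 the end of Vim had 166 FPKM and the starts summed to 167 FPKM. Without the upstream start, Vim would have 102 FPKM at that start at d3 and would still be highest there.

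Serpina3n had 4 starts. Those with a first exon of 104406729 to 104406795 and of 104406729 to 104406791 differ only in where that exon ends. The former had 34.8% of the gene value in the control and between 61.4% and 68.3% at the 5 days post-stroke. The latter had 20.3% in the control, 17.4% at d1, 27.2% at d3, 27.4% at d7, 33.4% at d14 and 34.9% at d28. A longer first exon, 104406729 to 104406854, had 30.1% in the control and 8.2% at d7 and was not listed at days 14 and 28. A start at 104407569 to 104407697 was listed in the control alone, at 0.784 FPKM. No error can be given for these shares.

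Cd44 is known for its variable exons, which are joined or skipped to give many forms of the receptor. The listed events skip the stretch between positions 102828610 and 102853015, where the annotation holds 10 exons, and no event that keeps one of these exons was listed in any library. The skipping form had 94.0% of the gene value in the control, 98.8% at d1, 96.6% at d3, 98.5% at d7 and 93.2% at d28. At day 14 the skipping event was not listed. The start had 0.240 FPKM there, the same as the end of a short transcript at 102851893, while the distal end had 3.62 FPKM. At day 28 the distal end was not listed, and the end sum was 0.044 FPKM against a start sum of 0.649 FPKM. The level of Cd44 at days 14 and 28 thus differs with the end of the gene that is read.

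**Figure D5:**
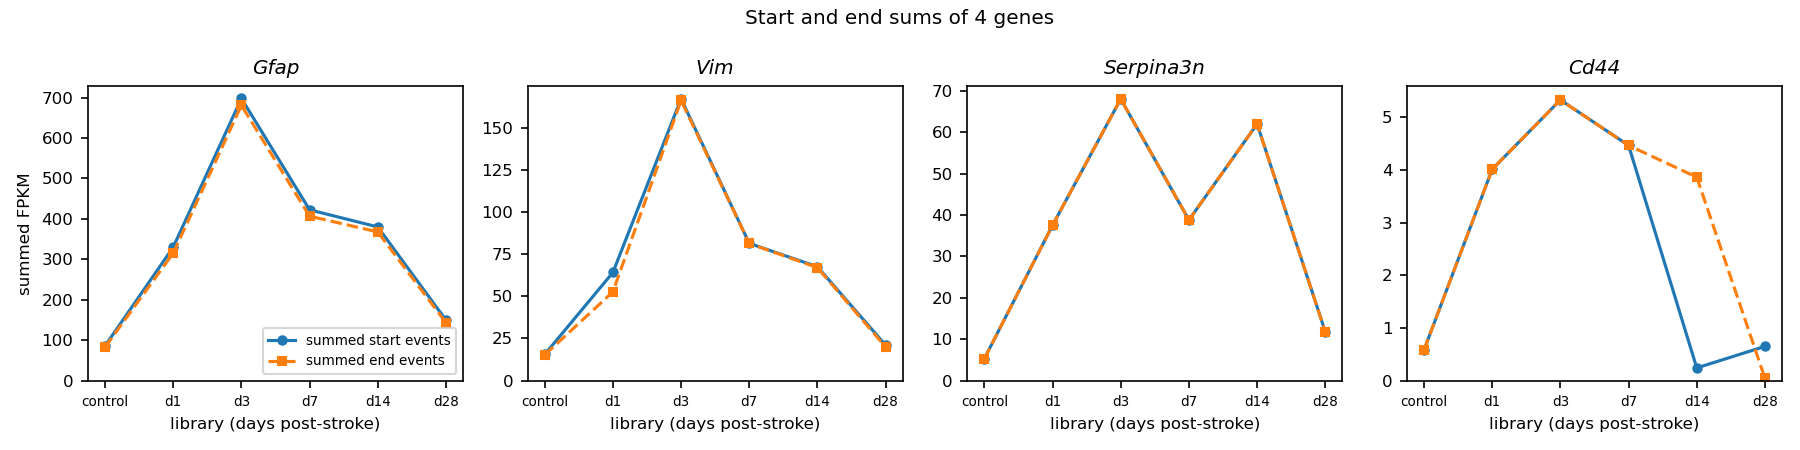
Summed FPKM of start events (blue circles) and of end events (orange squares) of Gfap, Vim, Serpina3n and Cd44 in the control and the 5 post-stroke libraries (x axis), each panel with its own linear y axis from 0. Starts and ends lie together for Gfap, Vim and Serpina3n, apart from Vim at d1 (64.2 against 52.7 FPKM), and part for Cd44 at d14 (0.240 against 3.86 FPKM) and day 28 (0.649 against 0.044 FPKM).

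Since the 10 genes were high together at days 1 and 3, their promoter windows were searched for letters bound by factors of the injury response. The windows are those of RefSeq on GRCm38.p6, from 250 bases before to 50 after the start of each gene, and all 10 genes matched, Emp1 with 2 windows. The letters were TTCNNNGAA for STAT factors, TGANTCA for AP-1 and TTGCNNAA for C/EBP, on both strands. STAT letters were in the windows of 3 genes (Emp1, Gfap and Steap4), against 8.30% of all 32851 windows. AP-1 letters were in the window of 1 gene (Emp1), against 7.81%, and C/EBP letters in those of 3 genes (Lcn2, Ptx3 and Steap4), against 10.8%. These 3 are the 3 genes that were not listed in the control, which was noticed after the search and not tested. A match of letters is no evidence that a factor binds there.

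The 250 bases before the start are shown for the 3 genes not listed in the control and for Emp1, which had the most matches, 5′ to 3′ on the strand of the gene, with matches in capitals. Lcn2 is at chr2:32387740-32387989 on the minus strand, Ptx3 at chr3:66219637-66219886, Steap4 at chr5:7960222-7960471 and Emp1 at chr6:135362681-135362930, the last 3 on the plus strand.
Lcn2: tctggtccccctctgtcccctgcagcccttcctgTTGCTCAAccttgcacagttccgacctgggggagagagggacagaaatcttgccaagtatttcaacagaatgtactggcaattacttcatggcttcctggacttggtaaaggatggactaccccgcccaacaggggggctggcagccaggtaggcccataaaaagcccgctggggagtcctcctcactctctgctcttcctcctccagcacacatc
Ptx3: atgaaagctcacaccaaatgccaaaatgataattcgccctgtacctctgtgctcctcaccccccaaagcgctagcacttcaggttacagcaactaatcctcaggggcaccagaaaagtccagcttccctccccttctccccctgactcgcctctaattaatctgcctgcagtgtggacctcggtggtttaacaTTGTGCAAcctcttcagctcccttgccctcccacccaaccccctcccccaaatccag
Steap4: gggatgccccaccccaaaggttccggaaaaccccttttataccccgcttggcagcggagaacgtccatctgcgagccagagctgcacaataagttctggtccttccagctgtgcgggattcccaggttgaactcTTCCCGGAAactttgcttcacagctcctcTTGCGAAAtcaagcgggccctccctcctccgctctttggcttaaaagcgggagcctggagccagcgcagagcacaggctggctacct
Emp1: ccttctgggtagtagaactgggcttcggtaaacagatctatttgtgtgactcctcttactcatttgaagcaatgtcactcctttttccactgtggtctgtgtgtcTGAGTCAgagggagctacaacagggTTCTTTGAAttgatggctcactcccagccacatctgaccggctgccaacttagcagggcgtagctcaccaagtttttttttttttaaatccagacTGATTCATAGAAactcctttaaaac
In Lcn2 and Ptx3 the capitals are the C/EBP letters, TTGCTCAA and TTGTGCAA. In Steap4 they are, in order, STAT letters (TTCCCGGAA) and C/EBP letters (TTGCGAAA). In Emp1 they are AP-1 letters (TGAGTCA), STAT letters (TTCTTTGAA) and a run of AP-1 letters (TGATTCA) that overlaps STAT letters (TTCATAGAA). In Gfap the match, TTCCAGGAA, lies across the annotated start at chr11:102897194-102897202, and the start listed in these libraries was 69 bases further into the gene. The nearest listed start was at -359 bases from the annotated one in Vim and at 207 bases in Cd44 (positive into the gene), so the lack of matches in their windows does not bear on those starts.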

How the data were processed

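Per the labels and the study's methods, poly(A)-selected, strand-specific libraries of RNA pooled from 3 mice per group were sequenced as 150-base pairs. The submitters' processing notes name Trimmomatic 0.30, HISAT2 2.0.1, HTSeq 0.6.1 and build mm10. The authors deposited, per library, a table of transcript events with their FPKM; the tool that called the events is not given in the sources used here. Events without a gene identifier (782 to 934 per library) were left out. Of the identifiers, 15411 of 15441 matched GENCODE M21. Of the events with an annotated gene, 93.4% overlapped its span on its strand. Gene values, log2 ratios (pseudocount 0.1, minimum 1 FPKM in 1 of the 2 libraries) and counts were computed with Python 3.11.15, numpy, pandas and scipy, and the steps were tested on simulated data. Groups came from the labels. With 1 library per group, no test was made and no p-value is given. The 10 genes and all gene lists were chosen with earlier results of these data known. Named genes are the 10 genes, the listed markers and, for each gene listed in all libraries, the 5 genes nearest to it. One listed marker, and the counts and sums of its list, are not reported here. Nes was left out of that search because it was not listed at days 14 and 28. Alternatives were other pseudocounts, filters, thresholds, gene values, scalings and a removed trend over transcript length (20 bins).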

Additional observations from a re-analysis of the deposited data

Results flagged for a closer look

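A signal appeared in events that no comparison above uses. Within the span of S1pr3, on the opposite strand, an event of Gm32834 had 0.0473 FPKM at day 28 and 0.0083 FPKM at day 14, and it was not listed in the control or at days 1, 3 and 7. The values are far under the 1.41 FPKM of S1pr3 at day 28, and the difference was not tested.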

How the results depend on the processing

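Each setting was changed alone. The counts of the 10 genes called higher on d1, d3, d7 and d14 stayed within 1.5 times under every alternative run, a wide margin for counts this small. With genes required to be listed in both libraries, the counts were 7, 7, 6 and 6 in place of 10, 10, 7 and 9. The medians of the log2 ratios of the 10 genes kept their side of 1. The d3 median, however, went from 3.22 to 1.87 with a pseudocount of 1, and the d28 median from 0.31 to 0.13 with summed starts. Of 33 log2 ratios of single genes, 27 were at least 1, and of their 393 alternative values 377 kept their side, 14 went under the threshold (9 of them at the threshold of 2), 1 went past it as lower and 1 changed side. The last 2 were both Cd44 and both changed sign. The day 28 counts and the small lists moved most. With genes required to be listed in both libraries, 1 of the 10 genes was called higher on d28 in place of 2, and 2 A2 genes on d3 and 2 on d14. With a threshold of 2, 1 of the 10 genes was called higher on d28; of the A1 genes 0 were called on d1, 4 on d3, 3 on d14 and 0 on d28; of the A2 genes 2 on d14 and 0 on d28; and of the regulators 1 on each of d1, d3 and d7. Without a filter on low values, 7 A2 genes were called on d3, 7 on d7 and 2 on d28, and 6 pan-reactive genes on d28. With a pseudocount of 1, S1pr3 on d7 went under the threshold (0.85), 0 A1 genes were called on d28 and 1 regulator on d7. With summed starts (TSS) as gene values, 1 of the 10 genes and 1 pan-reactive gene were called on d28, and Cd44 had a log2 ratio of -1.003 on d14 in place of 2.54, since its start had 0.240 FPKM there. With summed ends (TTS), 1 A1 gene was called on d28, and Cd44 had a log2 ratio of -2.24 on d28 in place of 0.13, with -11.3% of its peak rise left, below the control, since its distal end was not listed. Emp1 had 5.6% left in place of 3.1%. Emp1 on d14 fell under the threshold with a pseudocount of 1, under both scalings and with the length trend removed. Scaled to the same total, scaled by median ratio or with the length trend removed, 2 A2 genes were called on d14 in place of 4. Scaling to the same total moved the median of all genes on d14 from 0.10 to -0.09. Without the day 14 library, an alternative added after seeing the data, 2 genes peaked on d1 in place of 1. Of the A1 genes, 7 then peaked on d7 in place of 3; with summed starts 5 peaked on d7 and 0 on d3, with summed ends 0 on d1, and with the length trend removed 2 on d1. Under none of the alternatives did an A2 gene peak after d3. Apart from the Cd44 values, where the construction shows it, and the changes that follow from a stricter or absent filter or threshold, the cause was not tested. No paired analysis was possible because each group has 1 library. The read depth of each library is unknown, so the precision of values near 1 FPKM cannot be given.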
